A study of Rattus norvegicus with 4 samples.

Results

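The reelin and LDL receptor family was followed in the rat line CG4, glial progenitors able to become oligodendrocytes, which make the myelin of the brain and spinal cord. The set holds the secreted ligand gene Reln, its receptor genes Vldlr and Lrp8, the adaptor gene Dab1, and 5 further receptor genes, Lrp1, Lrp2, Lrp4, Lrp5 and Lrp6. The genes were taken by name from a table of 14410 genes; all 9 had a row, and all 9 were among the 14368 genes with enough signal to be tested. Cells of wild type background had received a retrovirus with CAG-IRES-GFP (ctrl) or with CAG-Phf8-IRES-GFP (Phf8oe), where CAG is a broadly active promoter and Phf8 encodes a histone lysine demethylase. Both groups were sorted for GFP, expanded, and kept in differentiation medium for 3 days before RNA was taken. There were 2 libraries per group, called biological replicates. The labels do not tell whether these were separate transductions, so p-values speak only of the spread between libraries of this kind. The test also borrows variance from other genes, with a median of 6.99 prior against 2 residual degrees of freedom. The comparison asks which of these genes differ when Phf8 is raised.

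Reelin is a large secreted glycoprotein best known for guiding the layering of migrating neurons. It binds the very low density lipoprotein receptor (Vldlr) and the apolipoprotein E receptor Lrp8, Src family kinases then phosphorylate the adaptor Dab1 on the receptor tails, and Dab1 passes the signal to the cytoskeleton before it is degraded. The related receptors have other work: Lrp1 and Lrp2 take up many ligands, Lrp4 binds agrin and modulates Wnt signalling, and Lrp5 and Lrp6 are coreceptors for Wnt proteins.

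Promoter sequences of the genes that changed are shown to give the DNA around their starts. They come from RefSeq on the GRCr8 assembly, whereas the counts were made on rn6 (Rnor_6.0), per the submitters' processing notes. The table gave 1 entry each for Reln, Vldlr, Lrp1 and Lrp2 and 2 for Dab1; Lrp4, Lrp5, Lrp6 and Lrp8 were not matched. Each runs 5′ to 3′ on the gene's strand from 250 bases before the start to 50 after it, and capitals mark GC boxes (GGGCGG on either strand). They lie at chr4:13628318-13628617 on the plus strand for Reln, chr1:234240436-234240735 on the plus strand for Vldlr and chr3:74754486-74754785 on the minus strand for Lrp2.
Reln: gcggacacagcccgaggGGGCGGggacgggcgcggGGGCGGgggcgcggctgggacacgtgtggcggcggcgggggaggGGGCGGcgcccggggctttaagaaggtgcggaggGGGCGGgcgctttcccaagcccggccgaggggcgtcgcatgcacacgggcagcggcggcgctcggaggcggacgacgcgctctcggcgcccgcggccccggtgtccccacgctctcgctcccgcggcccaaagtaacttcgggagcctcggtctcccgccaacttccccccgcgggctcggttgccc
Vldlr: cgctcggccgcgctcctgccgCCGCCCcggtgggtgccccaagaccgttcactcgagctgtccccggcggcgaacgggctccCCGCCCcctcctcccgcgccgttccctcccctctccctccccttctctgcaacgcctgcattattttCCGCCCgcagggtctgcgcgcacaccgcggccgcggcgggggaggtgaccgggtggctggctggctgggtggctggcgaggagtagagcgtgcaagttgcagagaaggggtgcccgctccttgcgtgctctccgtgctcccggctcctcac
Lrp2: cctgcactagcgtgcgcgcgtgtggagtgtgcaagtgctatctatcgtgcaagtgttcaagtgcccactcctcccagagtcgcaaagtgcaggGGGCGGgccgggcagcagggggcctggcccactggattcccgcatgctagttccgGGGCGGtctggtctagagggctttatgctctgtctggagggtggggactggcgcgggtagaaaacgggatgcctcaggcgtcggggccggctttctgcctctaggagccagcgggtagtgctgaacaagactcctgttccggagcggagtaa
The Reln window holds 4 GC boxes, the Vldlr window 3 and the Lrp2 window 2. The windows of Lrp1 and of the first Dab1 entry, genes that did not pass the test, hold 1 each. Of 33469 RefSeq promoters of the same length, 33.1% hold at least 1. Reln has 47 CG dinucleotides in the window, more than 98.7% of those promoters. Vldlr has 34, Lrp2 has 20, Lrp1 has 16 and Dab1 has 15, against a median of 7. An E-box (CACGTG) occurs once in the Reln window, 195 bases before the start, and in 6.42% of all promoters. Neither the AP-1 site TGANTCA nor the TATA box TATAAA was found on either strand of the Reln, Vldlr and Lrp2 windows. Of all promoters 7.33% and 14.2% hold them. These matches describe the letters only, and no factor binding was measured here.

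The values are normalized counts, that is, reads per gene divided by a library factor and rounded by the authors. Deposited totals lay between 39945215 and 41149255, and the reads behind them were estimated from the spacing of the values at 28400000 to 47800000. Phf8 itself stood at 2026 and 2205 in ctrl and at 5650 and 10796 in Phf8oe. Its log2 fold change was 1.89 with a limma adjusted p of 0.0631 (SE 0.35), so it was higher in both Phf8oe libraries but not past the threshold of 0.05. Leaving out a Phf8oe library, which removes the spread between them, made it pass (log2 fold change 2.35 without replicate 1 and 1.42 without replicate 2), as did dropping robust moderation (adjusted p = 0.0194). Among 11 markers of the oligodendrocyte lineage, all 11 were measured and 4 rose, Mbp, Mag and Mog among them, while Pdgfra, a progenitor receptor, fell. Of all tested genes 2.99% rose and 4.65% fell past the threshold. Of 9 markers of Cajal-Retzius and other reelin-making neurons 3 had values, Calb2, Gad1 and Gad2, and none passed limma. Only Calb2 had an unadjusted p under 0.05, as did 3778 of all 14368 tested genes. The list summed to 206 and 219 in ctrl and to 330 and 217 in Phf8oe. Calb2 made up most of these sums, with 150 and 154 in ctrl and 286 and 200 in Phf8oe. Both other markers were lower in both Phf8oe libraries: Gad1 had 41 and 51 in ctrl and 34 and 11 in Phf8oe. Gad2 had 15 and 14 in ctrl and 10 and 6 in Phf8oe. Of 9 general neuronal markers 8 were tested and none passed limma (4 had an unadjusted p under 0.05). Their sums were 18016 to 20119 in ctrl and 14604 to 14721 in Phf8oe. Of the 8 log2 fold changes 6 lay below 0, with a median of -0.78, and 2 above, Map2 (0.07) and Elavl4 (0.25). Tubb3, at -1.24, went from 7458 and 4778 in ctrl to 1893 and 3353 in Phf8oe. Of 7 astrocyte markers 6 were tested; Gfap fell and Aldh1l1 and Slc1a3 rose, and the list summed to 92430 and 93079 in ctrl against 22086 and 32268 in Phf8oe. Gfap carried that drop, since the other 5 markers summed to 13289 and 12343 in ctrl and to 11252 and 12655 in Phf8oe. This sum was formed after the values were seen. S100b made up most of it, with 12094 and 10964 in ctrl and 9541 and 10816 in Phf8oe, so it tells little of the rest. Slc1a2 (log2 fold change -1.02) and Gja1 (-0.76) were lower in both Phf8oe libraries without passing limma, unlike Aldh1l1 (1.88) and Slc1a3 (0.55), which rose. Col1a1, alone of 7 fibroblast and pericyte markers to be measured, fell, with values of 437 to 454 in ctrl and 121 to 164 in Phf8oe. Of 5 Schwann cell markers Egr2 fell (sums 4867 to 6079 and 4852 to 5691), and neither of 2 measured microglial markers of 6 passed (0 at an unadjusted p under 0.05; sums 142 to 214 and 154 to 212). The part of these marker differences in the results that follow was not tested.

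Reln, Vldlr and Lrp4 fell in Phf8oe, Lrp2 rose, and Lrp8, Dab1, Lrp1, Lrp5 and Lrp6 did not pass the test. The ligand moved furthest down and Lrp2 furthest up. Past an adjusted p of 0.05 in limma, 4 of 9 genes differed, against 7.64% of all tested genes. Of the 9, 3 were lower (4.65% of all genes) and 1 was higher (2.99%). The members were chosen with earlier results of these data known, so these shares are a description. The 2 groups did not overlap in 6 of the 9 genes, 4 lower and 2 higher. Among all genes 57.6% did not overlap, 28.7% lower and 28.9% higher, so non-overlap was common. The median log2 fold change of the family was -0.32 and that of all tested genes 0.00313. RNA from a whole culture cannot tell fewer cells of a type from less RNA per cell.

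**Figure D1:**
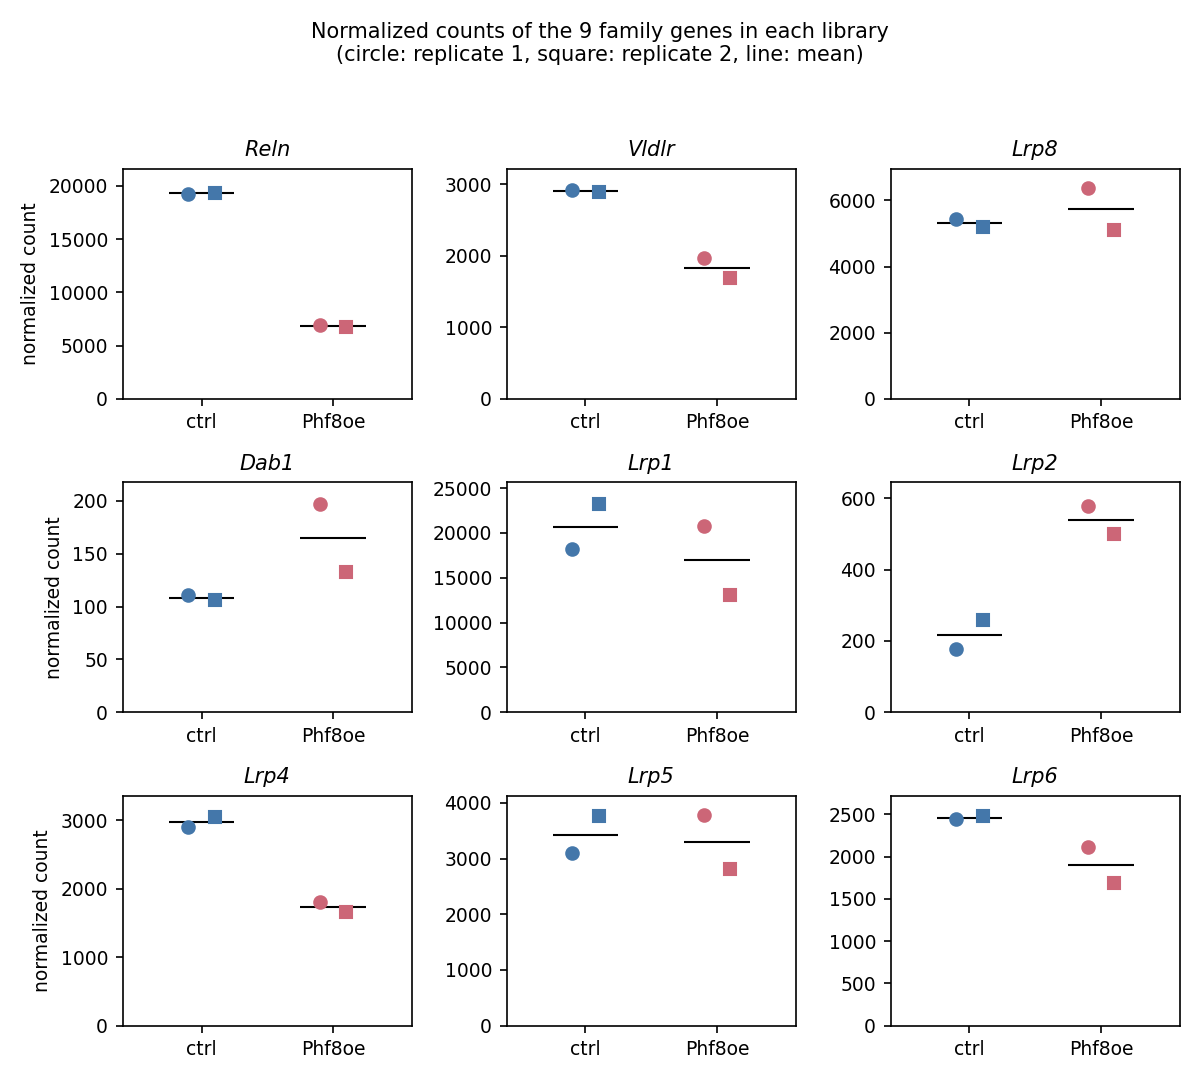
Normalized counts (vertical axes, from 0, one scale per gene) of the 9 genes in the 2 ctrl libraries (blue) and the 2 Phf8oe libraries (red), with circles for replicate 1, squares for replicate 2 and lines for group means. Reln drops from 19228 and 19361 to 6947 and 6748 with replicates almost on top of each other, while Lrp1 and Lrp5 overlap between groups.

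Reln, the ligand, had normalized counts of 19228 and 19361 in the ctrl libraries and of 6947 and 6748 in the Phf8oe libraries. The replicates lay within 1.03-fold of each other, and the lowest ctrl value was 2.77 times the highest Phf8oe value. Reln fell 2.82-fold (95% confidence interval 2.42 to 3.28), to 35.5% of its ctrl mean, with a log2 fold change of -1.49 (SE 0.097, n = 2 per group, limma adjusted p = 0.000282). By size of p, 2 of the 14368 tested genes ranked before it, and 181 genes had a more negative log2 fold change. The call held with each library left out, the log2 fold change staying between -1.52 and -1.47 and the adjusted p at or below 0.0316.

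Of the 2 canonical reelin receptors, Vldlr fell and Lrp8 did not pass the test. Vldlr stood at 2914 and 2887 in ctrl and at 1972 and 1689 in Phf8oe, so the ctrl libraries were nearly equal and both Phf8oe libraries were lower. It fell 1.59-fold (95% confidence interval 1.33 to 1.89; log2 fold change -0.67, SE 0.11, limma adjusted p = 0.012). Leaving out a ctrl library ended the call: the adjusted p was 0.189 without replicate 1 (log2 fold change -0.66) and 0.0914 without replicate 2 (-0.67).

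Lrp8, the other receptor, had 5440 and 5183 in ctrl and 6375 and 5102 in Phf8oe, and the groups overlapped. Its log2 fold change was 0.10 (95% confidence interval -0.17 to 0.38; limma adjusted p = 0.634), and it turned to -0.06 without Phf8oe replicate 1. The interval of Vldlr, -0.92 to -0.42 on the log2 scale, does not meet that of Lrp8; the difference between the receptors was itself not tested.

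Dab1, the intracellular adaptor, was a low gene, with 111 and 106 in ctrl and 197 and 133 in Phf8oe. Both Phf8oe values lay above both ctrl values, but the Phf8oe libraries differed from each other by 1.48-fold. The log2 fold change was 0.57 (95% confidence interval 0.01 to 1.14; SE 0.25, limma adjusted p = 0.184) and did not pass. Without Phf8oe replicate 2 it was 0.85 and passed (adjusted p = 0.0346), and without Phf8oe replicate 1 it was 0.29 (adjusted p = 0.545).

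**Figure D2:**
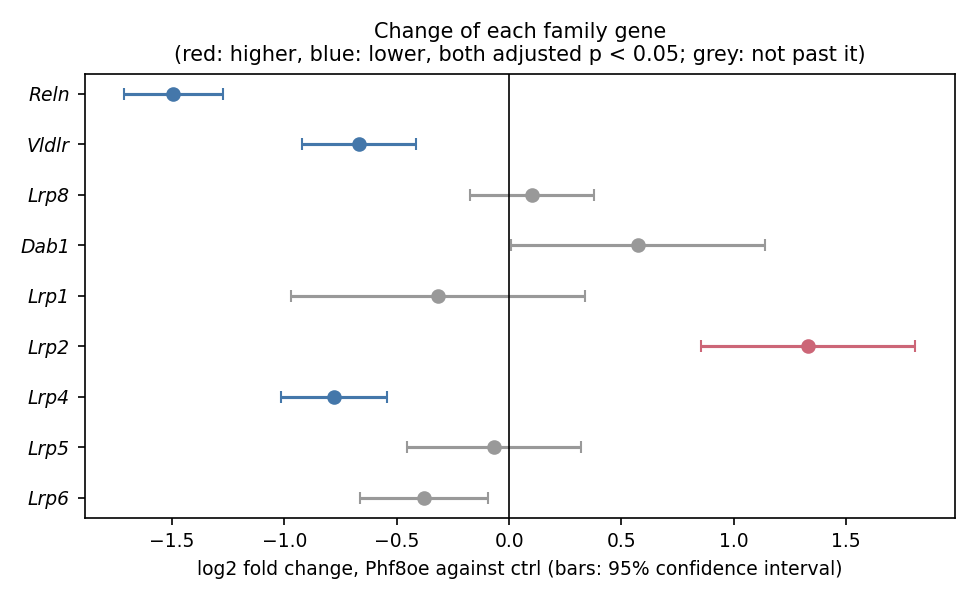
Log2 fold change of Phf8oe against ctrl (horizontal axis) with its 95% confidence interval for each of the 9 genes, in blue where lower and red where higher past an adjusted p of 0.05, and grey otherwise. Reln lies furthest to the left at -1.49 and Lrp2 furthest to the right at 1.33, and Lrp1, with an interval from -0.97 to 0.34, is among those that span 0.

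The endocytic receptor genes Lrp1 and Lrp2 gave different outcomes. Lrp2, which encodes megalin, an uptake receptor best known in the kidney and other epithelia, had 176 and 258 in ctrl and 577 and 501 in Phf8oe. The lower Phf8oe value was 1.94 times the higher ctrl value, although the ctrl libraries differed by 1.47-fold. Lrp2 rose 2.52-fold (95% confidence interval 1.81 to 3.50; log2 fold change 1.33, SE 0.21, limma adjusted p = 0.00955), and 99 of the 14368 tested genes had a higher log2 fold change. Without ctrl replicate 1 the log2 fold change was 1.06 and the call was lost (adjusted p = 0.142); without ctrl replicate 2 it was 1.61 (adjusted p = 0.0287).

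Lrp1, a receptor for apolipoprotein E and protease complexes among many ligands, had 18179 and 23247 in ctrl and 20807 and 13090 in Phf8oe. Phf8oe replicate 1 lay between the ctrl libraries and replicate 2 below both. The log2 fold change was -0.32 (95% confidence interval -0.97 to 0.34; SE 0.25, limma adjusted p = 0.492). It was -0.65 and past the threshold without Phf8oe replicate 1 (adjusted p = 0.00753), and 0.02 without Phf8oe replicate 2 (adjusted p = 0.954), so the value rests on which Phf8oe library is used.

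Lrp4, the agrin receptor of the neuromuscular junction, had 2905 and 3042 in ctrl and 1807 and 1658 in Phf8oe. Replicates differed by at most 1.09-fold and the groups were well apart. Lrp4 fell 1.72-fold (95% confidence interval 1.46 to 2.02; log2 fold change -0.78, SE 0.10, limma adjusted p = 0.00543). Neither fit with a single ctrl library kept the call, the adjusted p being 0.11 without replicate 1 (-0.81 on the log2 scale) and 0.0624 without replicate 2 (-0.75).

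The Wnt coreceptor genes did not pass. Lrp6 had 2443 and 2482 in ctrl and 2118 and 1689 in Phf8oe, lower in both Phf8oe libraries. Its log2 fold change was -0.38 (95% confidence interval -0.67 to -0.10; SE 0.13, limma adjusted p = 0.0959), and it passed without Phf8oe replicate 1 (-0.54, adjusted p = 0.00618). Lrp5 had 3092 and 3769 in ctrl and 3775 and 2809 in Phf8oe, and the groups overlapped. Its log2 fold change was -0.07 (95% confidence interval -0.45 to 0.32; limma adjusted p = 0.83), and its sign turned without ctrl replicate 2 (0.07) or without Phf8oe replicate 2 (0.15).

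**Figure D3:**
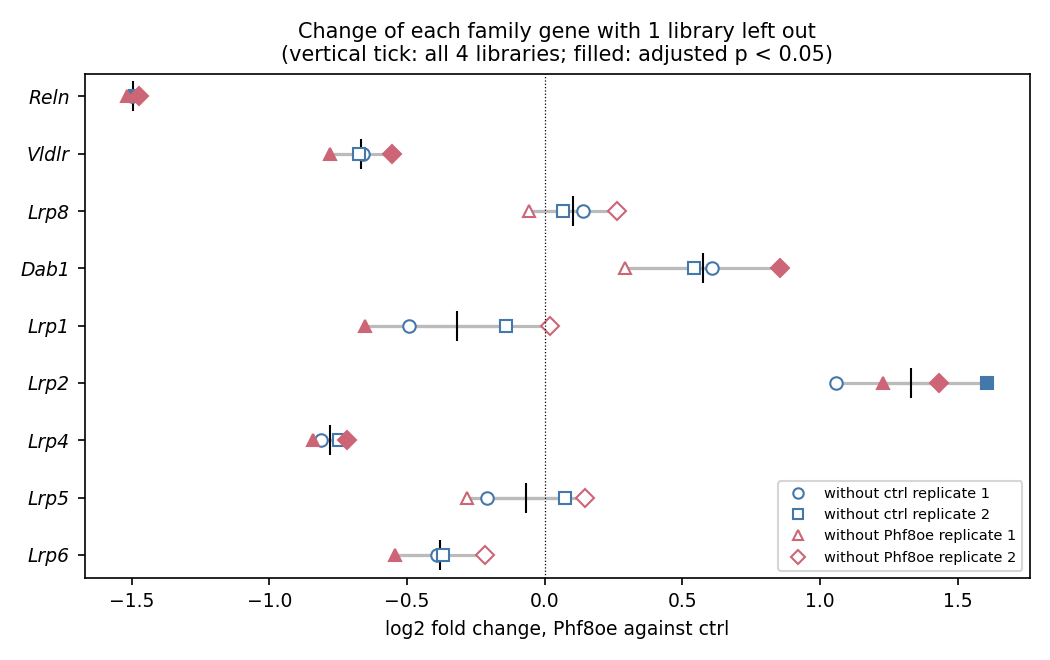
Log2 fold change of each gene (horizontal axis) with 1 library left out, as blue circles and squares without ctrl replicates 1 and 2 and red triangles and diamonds without Phf8oe replicates 1 and 2; filled symbols passed an adjusted p of 0.05 and black ticks mark all 4 libraries. Reln is filled in all 4 and hardly moves, Lrp1 spreads from -0.65 to 0.02, and Vldlr and Lrp4 lose their fill without either ctrl library.

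The Phf8oe libraries differed in Phf8 by 1.91-fold, replicate 2 holding more. In the same replicate 2 all 9 family genes were lower than in replicate 1, against 48.5% of all tested genes, with ratios from 0.629 for Lrp1 to 0.971 for Reln and a median of 0.80, where all genes had a median of 1.00. Lrp2 and Dab1, both higher in Phf8oe than in ctrl, were thus also lower in the library with more Phf8, at ratios of 0.868 and 0.675. In ctrl 3 of the 9 genes were lower in replicate 2, against 49.1% of all genes. Phf8oe replicate 2 also had fewer estimated reads than Phf8oe replicate 1, 28400000 against 43100000. With 2 libraries the Phf8oe ratios cannot be tested against the level of Phf8 or the number of reads.

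Genes that pass on the reelin signal inside the cell were mostly not past the test. Of 32 tested members of that list 3 fell, none rose and 29 did not pass, against 4.65% lower and 2.99% higher of all genes. The list's median was -0.11 on the log2 scale. Pik3r1, the regulatory subunit of phosphoinositide 3-kinase, went from 5185 and 4908 to 3242 and 3281 and fell 1.55-fold (limma adjusted p = 0.00856). Nck2, an adaptor between receptors and the actin machinery, went from 2103 and 1870 to 1105 and 1359 and fell 1.62-fold (limma adjusted p = 0.0187). Socs7, a ubiquitin ligase subunit that acts on phosphorylated Dab1, went from 839 and 788 to 576 and 511 and fell by 0.58 on the log2 scale (limma adjusted p = 0.0354). The 2 most abundant genes stood near no change: the kinase gene Fyn had a log2 fold change of 0.04 (SE 0.11, limma adjusted p = 0.836) and the actin regulator gene Cfl1 one of -0.02 (SE 0.11, limma adjusted p = 0.946). Socs7 also missed without robust moderation (adjusted p = 0.0529). Of the 3 genes that fell, none passed without a ctrl library: the lowest adjusted p was 0.177 without replicate 1 and 0.0665 without replicate 2.

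Among proteases that cut reelin and their inhibitors, 12 were tested, 1 rose and 1 fell, against 2.99% and 4.65% of all genes. Adamts3, a secreted protease that cleaves and inactivates reelin in the mouse brain, went from 681 and 676 in ctrl to 1174 and 1133 in Phf8oe. It rose 1.70-fold (log2 fold change 0.76, SE 0.12, limma adjusted p = 0.00866), with replicates far closer to each other than the groups. Plat, tissue plasminogen activator, went from 995 and 993 to 730 and 658 and fell 1.43-fold (limma adjusted p = 0.0381). Adamts4, another protease that cuts reelin, had a log2 fold change of -0.01 (SE 0.14) and the inhibitor gene Serpine2 one of -0.03 (SE 0.14), neither past the test. Without ctrl replicate 1 the adjusted p was 0.145 for Adamts3 and 0.308 for Plat, and without ctrl replicate 2 it was 0.0685 and 0.172; Plat also missed without Phf8oe replicate 2 (0.0542) and without robust moderation (0.0571).

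Of 7 tested other genes of the LDL receptor family, Ldlrad4 alone passed, against 7.64% of all genes. It encodes a small membrane protein that restrains TGF-beta signalling, and it went from 117 and 134 to 61 and 57, a 2.10-fold fall (limma adjusted p = 0.0334; 0.254 without ctrl replicate 1 and 0.192 without ctrl replicate 2). Lrp10 had a log2 fold change of -0.29 (SE 0.11, limma adjusted p = 0.148). The list had a median of -0.13.

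None of 14 chaperones, adaptors and degradation factors of these receptors passed limma, and 5 had an unadjusted p under 0.05. On the log2 scale 12 lay below and 2 above 0, with a median of -0.23. Of all 14368 tested genes, 3778 had an unadjusted p under 0.05, and 7128 lay below and 7240 above 0. The most abundant were Mapk8ip1, a scaffold that binds receptor tails, at -0.29 (SE 0.13, limma adjusted p = 0.187), and Apbb1, an adaptor of the amyloid precursor protein, at 0.22 (SE 0.11, limma adjusted p = 0.234).

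Among 12 tested ligands other than reelin, 2 fell and none rose, against 4.65% and 2.99% of all genes. Clu, clusterin, a ligand of Lrp2, went from 17125 and 21933 to 8364 and 6806 and fell 2.57-fold (log2 fold change -1.36, SE 0.15, limma adjusted p = 0.00429). Its call held with each library left out (adjusted p at most 0.0377). Sema3e, a semaphorin gene placed in this list, went from 3427 and 2820 to 1624 and 2152 and fell 1.66-fold (limma adjusted p = 0.0368). Its binding to the receptors of this family was not measured here. The log2 fold change of Sema3e was -0.59 without ctrl replicate 1 and -0.87 without ctrl replicate 2, and neither fit kept the call. The abundant ligand genes Psap and Calr had log2 fold changes of -0.21 and -0.09, neither past the test.

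Of 4 tested partners of Lrp4 none passed limma, and 0 had an unadjusted p under 0.05. Agrn, which encodes its ligand agrin, had 7918 and 9688 in ctrl and 13316 and 9162 in Phf8oe, overlapping groups with a log2 fold change of 0.33 (SE 0.20, limma adjusted p = 0.338). Gpc4, a glypican, had a log2 fold change of 0.45 (SE 0.22, limma adjusted p = 0.23).

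Of 27 tested partners of Lrp5 and Lrp6, 2 Wnt receptor genes of the Frizzled family fell and none rose. Of all genes 4.65% were lower and 2.99% higher, and the list's median was -0.09. Fzd3 went from 910 and 815 to 432 and 466 and fell 1.92-fold (limma adjusted p = 0.0076; 0.16 without ctrl replicate 1 and 0.0534 without ctrl replicate 2). Fzd5 went from 528 and 447 to 302 and 275 and fell 1.68-fold (limma adjusted p = 0.031; 0.334 without ctrl replicate 1 and 0.104 without ctrl replicate 2). The kinase genes Csnk1g2 and Csnk1a1 had log2 fold changes of 0.03 and -0.18, neither past the test. Over all partner lists, 10 of 105 tested genes passed, or 9.52%, against 7.64% of all genes, a share near the background with both directions pooled. Of the 105 genes 9 were lower and 1 was higher, against 4.65% and 2.99% of all genes. Their median log2 fold change was -0.10. Limma-voom called the same 10 genes.

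**Figure D4:**
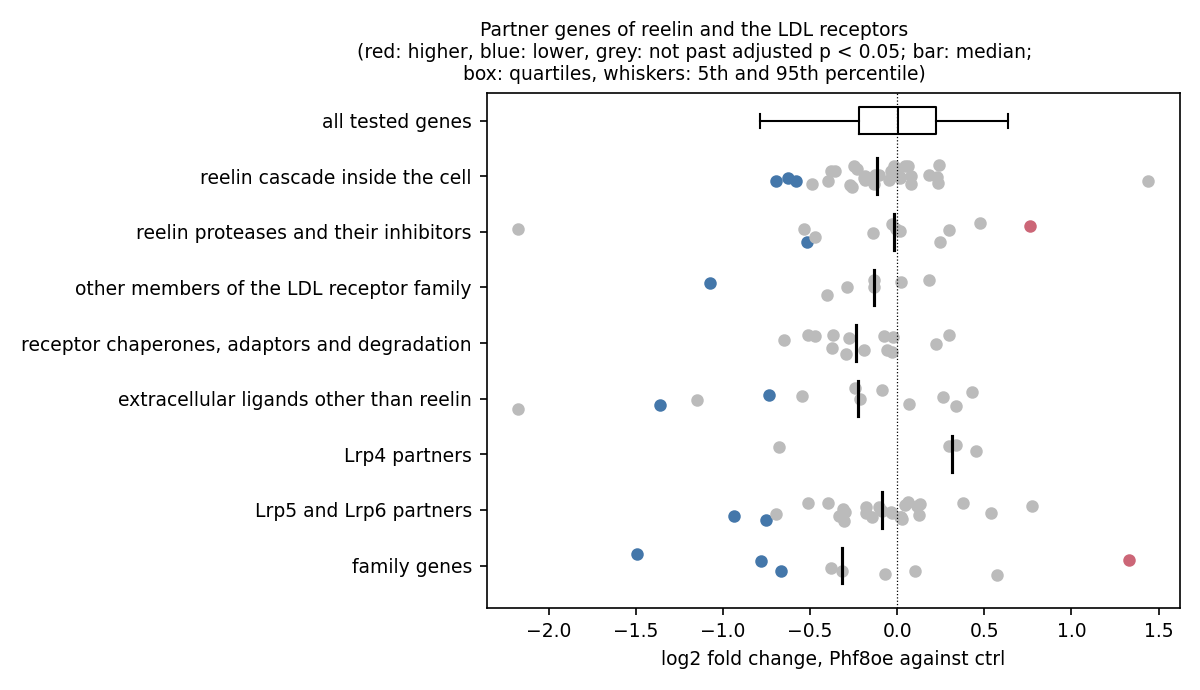
Log2 fold change of Phf8oe against ctrl (horizontal axis) for each tested gene of the 7 partner lists and the family, in blue where lower, red where higher and grey where not past an adjusted p of 0.05, with black bars for medians and a box for all tested genes (quartiles, whiskers at the 5th and 95th percentiles). Most partner genes sit within the whiskers, and Clu at -1.36 and Reln at -1.49 lie outside them.

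Several family genes span long stretches of the genome, and the change of all genes moved with that span. By length of the gene locus on GRCr8, 12539 of the tested genes were placed and split into 10 bins of equal size. The median log2 fold change went from 0.11 in the bin of shortest loci to -0.17 in that of the longest, where 13.2% of genes were lower past the threshold and 3.51% higher. Reln, Dab1, Lrp2 and Lrp6 belong to the bin of longest loci, Lrp1 and Lrp5 to bin 9, Lrp4 and Lrp8 to bin 8 and Vldlr to bin 6. Less the median of its bin, the log2 fold change was -1.33 for Reln, -0.72 for Lrp4, -0.68 for Vldlr and 1.5 for Lrp2. Mitochondrially encoded genes took 3.62% to 3.68% of the values in ctrl and 4.76% to 5.34% in Phf8oe; the part of this difference in the results was not tested. None of the 9 genes overlapped another of the 12539 placed genes on GRCr8, and tested genes without a place could not be checked.

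**Figure D5:**
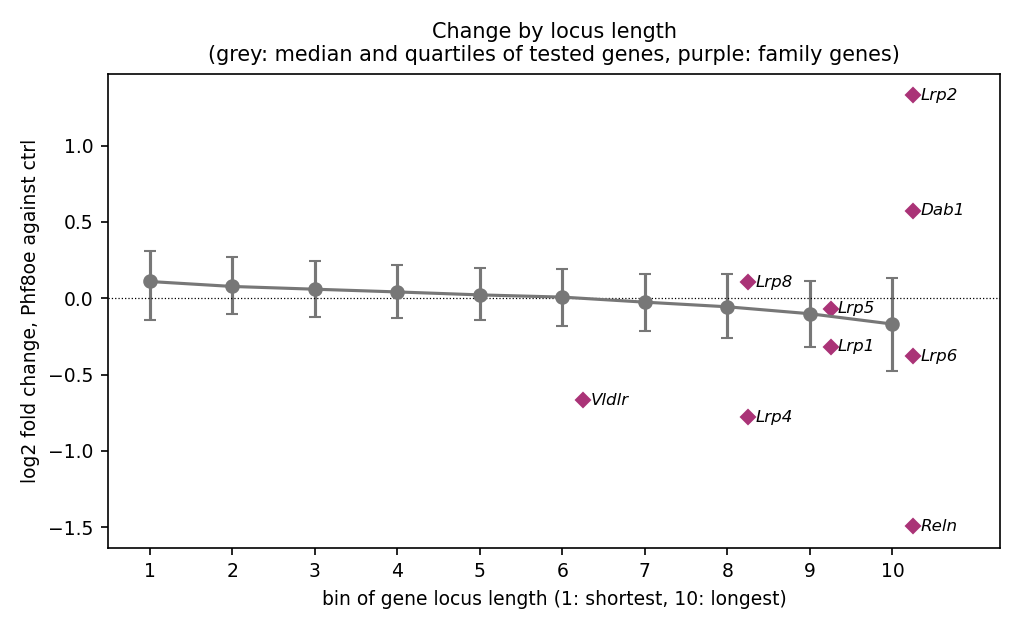
Median log2 fold change with quartiles (vertical axis, grey) of tested genes in bins of locus length (horizontal axis, 1 the shortest and 10 the longest), with the 9 family genes in purple. The medians slope from 0.11 to -0.17, and in bin 10 Reln lies far below and Lrp2 far above the quartiles.

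The genes most like Reln were sought by the distance between log2 profiles over the 4 libraries, each centred on its mean. Golga5 was nearest at a distance of 0.10, with 13405 and 12824 in ctrl and 4509 and 4769 in Phf8oe, a 2.83-fold fall (limma adjusted p = 0.000282). Rorb followed at 0.12 with a 2.76-fold fall (limma adjusted p = 0.00973), then Fam84a at 0.17, Kcnf1 at 0.18 and AABR07034767.1 at 0.19. For Lrp2 the nearest were Gsdma at 0.10, with 130 and 207 in ctrl and 435 and 367 in Phf8oe (limma adjusted p = 0.0202), Vwa2 at 0.11, Sema3g and Grm7 at 0.13 and Sgk2 at 0.14. Over 4 libraries many genes share a profile by group alone, so the likeness is a description.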

How the data were processed

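RNA-seq of 4 CG4 libraries, 2 ctrl and 2 Phf8oe, was used. The submitters' processing notes name STAR 2.5.2b, Trimmomatic 0.36, bcl2fastq 2.20 and DESeq2, and the builds rn6 and Rnor_6.0. The counter, annotation, strand setting and gene filter were not given in the sources used here. Each deposited value is a signal, a count normalized and rounded by the authors, although its label says raw: in Phf8oe replicate 2, 85 of 85 whole numbers between 10 and 300 that scaled, rounded reads would skip were absent. Sample files matched the series table exactly. Replicates differed beyond counting noise (chi-square per degree of freedom 21.0 and 34.3).

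Genes with at least 10 in at least 2 libraries were fitted with limma 3.58.1 (R 4.3.3) on log2(value + 1), group as the only term, with a mean-variance trend and robust moderation, two-sided, and Benjamini-Hochberg adjustment over all 14368 genes. Fold changes are on that scale, which understates low genes. The fit was tested on simulated data. Members, partner lists and rules were chosen with earlier results of these data known. Named are the members, Phf8, and per partner list up to 6 genes past the threshold and the 2 most abundant, plus 5 genes most like Reln and Lrp2. Some genes that this rule takes are not reported here. Alternatives changed pseudocount, filter, scaling, variance model, block, tested fold and libraries. No transcript lengths were used, so "abundant", "low" and "lowest" refer to deposited values uncorrected for length, not to levels per length. Tables and figures were made with Python 3.11.15, pandas 2.3.3 and matplotlib 3.10.9.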

Additional observations from a re-analysis of the deposited data

How the results depend on the processing

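Of the 4 family genes called, all 4 kept their calls under the other pseudocounts, filters and scalings, without robust moderation, with limma-voom and with the replicate block. With no mean-variance trend limma called 0 family genes, 0 partner genes and 0 of all genes (3133 at an unadjusted p under 0.05). Tested against a 1.5-fold change, 1 family gene (Reln), 0 partner genes and 27 of all genes passed. With 1 library left out, the count of family genes ranged from 1 to 6, of partner genes from 1 to 21 and of all genes from 20 to 2145; leaving out a ctrl library gave the low counts (20 and 190) and leaving out a Phf8oe library the high ones (1848 and 2145). In those fits the spread comes from the intact group and the lone library is assumed to vary like it.

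The replicate numbers are shared between groups but nothing says that they mark pairs; deviations of same-numbered libraries correlated at -0.13 over genes. With the replicate block 4 family genes, 4 partner genes and 373 of all genes passed; Nck2 (adjusted p = 0.0663), Socs7 (0.0828), Plat (0.093), Ldlrad4 (0.0902), Sema3e (0.106) and Fzd5 (0.0751) missed, and Phf8 passed (0.0313). Without robust moderation 9 partner genes passed, 8 of them among the 10, Socs7 and Plat missing. With the numbers crossed, an alternative chosen after seeing the data, 5, 17 and 2354 passed. The called share of all genes was 2.6% with the block, against 7.64%.

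Sign changes were confined, over these alternatives, to genes that did not pass: with 1 library left out the log2 fold change ranged from -0.65 to 0.017 for Lrp1, from -0.28 to 0.15 for Lrp5 and from -0.058 to 0.26 for Lrp8, and less the median of its locus length bin (also chosen later) Lrp5 stood at 0.034. Upper quartile scaling turned the split of all calls from 430 higher and 668 lower to 614 and 598. Levels per coding length were not run, since no coding lengths were given, and a count model was not run because the values are scaled. Dab1 and Lrp2 had the lowest values of the 9 genes, where counting error is largest relative to the value.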
